A study of Homo sapiens with 12 samples.

Results

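The genes described here are the receptors, adaptor, caspase, inhibitor and ligand of the extrinsic pathway of apoptosis, taken by gene symbol from RNA-seq counts of MNNG/HOS cells. They are 10 of the 43236 gene symbols in the count tables: *TNFRSF10A*, *TNFRSF10B*, *TNFRSF10C*, *TNFRSF10D*, *FAS*, *TNFRSF1A*, *FADD*, *CASP8*, *CFLAR* and *TNFSF10*. MNNG/HOS, labelled HOS-MNNG, is a human osteosarcoma line derived from HOS by chemical transformation. The cells received DMSO, the solvent used as the control, or 300 nM NXP800, a drug candidate found as an inhibitor of the HSF1 pathway, for 6 h or 24 h, with 3 libraries in each of the 4 conditions. The data come from 1 cell line in culture, and the labels do not say whether the replicates are separate cultures, so the p-values measure the spread between these libraries.

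Death receptors are transmembrane proteins of the TNF receptor family with an intracellular death domain. When TRAIL (encoded by *TNFSF10*) binds DR4 (*TNFRSF10A*) or DR5 (*TNFRSF10B*), or when Fas ligand binds FAS, the adaptor FADD joins the receptor and recruits procaspase-8 (*CASP8*), which is cut into an active protease. FLIP (*CFLAR*) resembles caspase-8 and competes with it at FADD, while the TRAIL receptors encoded by *TNFRSF10C* and *TNFRSF10D* bind TRAIL but lack a working death domain. TNFR1 (*TNFRSF1A*) mainly signals through TRADD and RIPK1 to NF-κB and reaches caspase-8 through a second complex. Active caspase-8 cuts executioner caspases, and BID, which carries the signal to the mitochondria. *TNFRSF10B* is known as a target of CHOP, the transcription factor encoded by *DDIT3*, under endoplasmic reticulum stress.

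Counts on genes lay between 30810614 and 31947656 per library. Read pairs outside annotated genes made up 6.66 to 8.14% of the 6 h and 2.73 to 3.67% of the 24 h libraries, so time of treatment and library set cannot be told apart, and NXP800 was compared with DMSO within a time point. Among the markers of bone-forming cells, *RUNX2* (20.7 to 42.5 CPM), *COL1A1* and *SPARC* were present in every library, while *COL1A2*, *ALPL* and *SP7* had at most 12, 7 and 1 counts. Of the markers of other cell types, *PTPRC* (immune cells) had at most 5 counts and *CDH1* (epithelium) at most 2, whereas *KRT8* reached 492 to 895 CPM, *CD68* 60.9 to 154 CPM and *EPCAM* 5.59 to 10.2 CPM. CPM are counts relative to the library size after TMM scaling, and a log2 change is a log2 fold change of NXP800 against DMSO. A gene was called higher or lower at a Benjamini-Hochberg adjusted p below 0.05 in edgeR's quasi-likelihood test over 15979 genes, and adjusted p-values below are from this test.

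Of the 10 genes, 8 had enough counts for the test. At 6 h NXP800 raised *TNFRSF10B* and *TNFRSF10A*, and lowered *TNFRSF10D* and *FADD*. *TNFRSF10B* was still higher at 24 h and *TNFRSF10D* still lower, and *FAS*, *TNFRSF1A* and *CFLAR* were lower. *CASP8* was called at neither time. The counts were 2 higher and 2 lower of 8 at 6 h, where 25.0% of all tested genes were called higher and 27.8% lower (52.8% in either direction). At 24 h they were 1 higher and 4 lower, against 27.5% and 28.6% of all tested genes (56.0% in either direction). With scaling by library size only, the all-gene split at 24 h was 5327 higher and 3747 lower, in place of 4387 and 4566. The share of these genes that was called is thus close to that of all genes. Their median log2 change was 0.028 at 6 h and -0.22 at 24 h, against -0.046 and -0.0033 over all tested genes. For 5 of the 8, the NXP800 and DMSO libraries did not overlap at 6 h, and likewise for 5 at 24 h, which held for 62.0 and 59.1% of all tested genes.

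**Figure D1:**
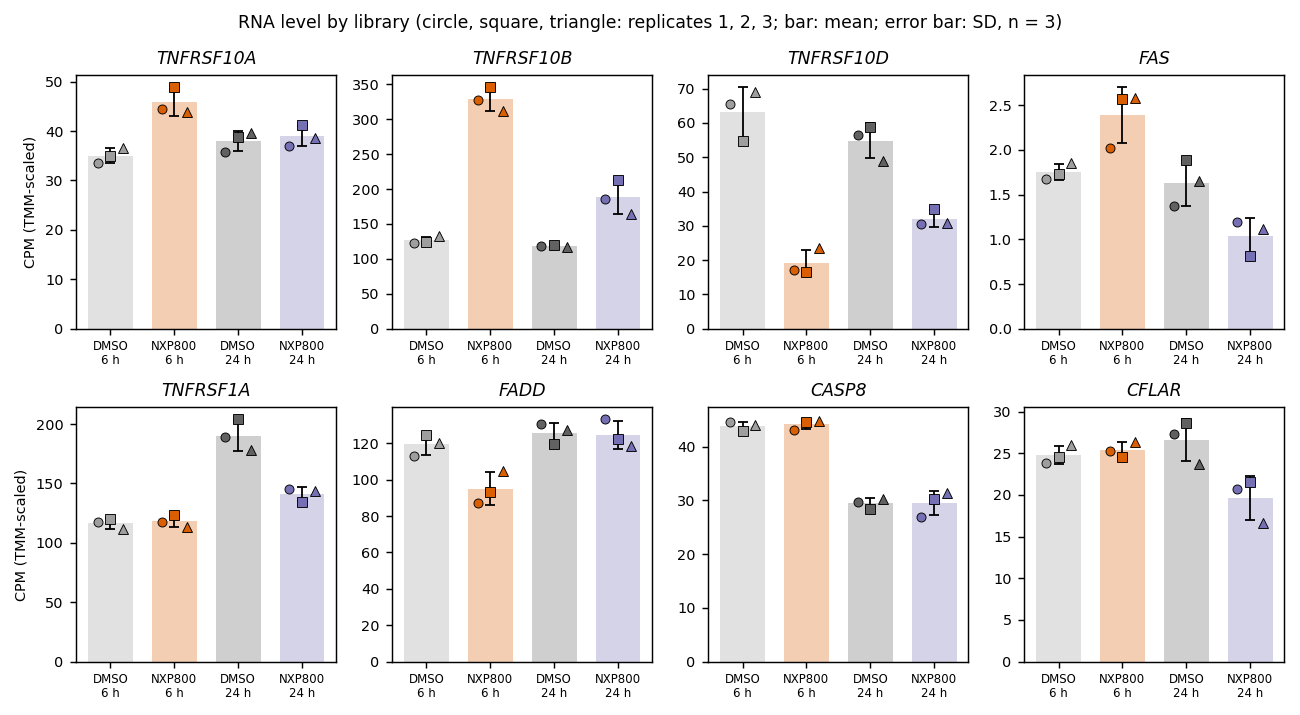
RNA level (y axis, TMM-scaled CPM, each panel with its own scale from 0) of the 8 tested genes in the 4 conditions (x axis), where points are libraries, bars are means and error bars are SD of 3 replicates. *TNFRSF10B* stands at 312 to 347 CPM in NXP800 at 6 h, above every other library, and *TNFRSF10D* is lowest in the same group, while the *CASP8* points of the 2 treatments overlap at each time.

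*TNFRSF10B*, which encodes the death receptor DR5, showed the largest rise among the 8. In GRCh38.p14, the build used throughout, the gene spans 23020133 to 23069031 on chromosome 8. In DMSO at 6 h its level was 123, 124 and 133 CPM in replicates 1, 2 and 3, and in NXP800 it was 327, 347 and 312 CPM. The lowest NXP800 library was thus far above the highest DMSO library. The level rose 2.60-fold, a log2 change of 1.38 (standard error 0.080, adjusted p = 1.37e-09). The 24 h DMSO libraries had 119, 120 and 117 CPM and the NXP800 libraries 186, 213 and 165 CPM. The groups were again apart, with a wider spread in NXP800. The rise at 24 h was 1.58-fold, or 0.66 on the log2 scale (standard error 0.079, adjusted p = 2.75e-06). Compared with 6 h, the 24 h response was smaller by a tested difference of -0.71 on the log2 scale (standard error 0.11, adjusted p = 0.000231). Exons on the opposite strand, of *RHOBTB2*, cover 7.525% of the exon length of *TNFRSF10B*.

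*TNFRSF10A*, which encodes DR4, the other TRAIL receptor with a death domain, lies on the same chromosome from 23190452 to 23225102. At 6 h it stood at 33.5, 35.0 and 36.7 CPM in DMSO and 44.5, 49.0 and 43.9 CPM in NXP800. All 3 NXP800 libraries were above all 3 DMSO libraries, by less than for *TNFRSF10B*. The rise was 1.31-fold, or 0.39 on the log2 scale (standard error 0.072, adjusted p = 0.000276). At 24 h the DMSO values of 35.7, 38.7 and 39.6 CPM overlapped with the NXP800 values of 37.1, 41.2 and 38.7 CPM. The 24 h log2 change was 0.037, with a 95% confidence interval from -0.12 to 0.19 (adjusted p = 0.681). The response in the 24 h libraries was thus smaller by 0.35 on the log2 scale (difference -0.35, adjusted p = 0.0189). This difference did not pass without DMSO 6 h replicate 1 (adjusted p = 0.0525) or without NXP800 6 h replicate 2 (0.0571). Exons of antisense and divergent transcripts cover 16.74% of the exon length of *TNFRSF10A*.

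*TNFRSF10D*, which encodes the decoy receptor DcR2, moved in the opposite direction. It lies between the 2 death receptor genes, from 23135588 to 23164027. Its level at 6 h was 65.5, 54.7 and 69.1 CPM in DMSO, and 17.2, 16.6 and 23.5 CPM in NXP800. The highest NXP800 library was below the lowest DMSO library by a wide margin. NXP800 libraries held 30.3% of the DMSO level, a log2 change of -1.72 (standard error 0.12, adjusted p = 1.28e-08). The 24 h level was 56.6, 58.8 and 49.0 CPM in DMSO and 30.5, 34.9 and 30.9 CPM in NXP800. The groups remained apart, with the NXP800 libraries higher than at 6 h. The NXP800 level was 58.5% of DMSO (log2 change -0.77, standard error 0.12, adjusted p = 4.05e-05). The difference between the responses was 0.95 on the log2 scale (standard error 0.17, adjusted p = 0.000708).

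The other 2 genes of the TRAIL system were near the limit of detection. *TNFRSF10C*, on chromosome 8 from 23102921 to 23117445, encodes the decoy receptor DcR1, which is held in the membrane by a lipid anchor. It had 4, 5 and 4 counts in DMSO and 1, 4 and 2 in NXP800 at 6 h. At 24 h it had 4, 3 and 8 counts in DMSO and 4, 2 and 6 in NXP800. No difference was detectable at this depth, and 33.01% of its exon length is shared with other annotated genes on the same strand. *TNFSF10*, the gene of the ligand TRAIL, on chromosome 3 from 172505508 to 172523430, had 2 counts in DMSO 6 h replicate 2, 2 counts in DMSO 24 h replicate 3 and 0 counts in the other 10 libraries. A count of 0 allows up to 3 counts in a library, which is 0.0911 to 0.103 CPM here, and covers counting error only. No 100-base stretch of exon sequence was shared between any 2 of the 10 genes, so reads of the 4 TRAIL receptor genes could be told apart at that length.

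The shift of the TRAIL receptor genes relative to each other can be read within each library, where scaling has no part. Such a ratio does not show the direction of either gene. *TNFRSF10B* had 1.88 to 2.26 counts for each count of *TNFRSF10D* in DMSO at 6 h, and 13.3 to 20.8 in NXP800. The log2 ratio thus differed by 3.11 between the treatments. At 24 h the ratio was 2.04 to 2.39 in DMSO and 5.33 to 6.11 in NXP800, a log2 difference of 1.43. Between the death receptors, the ratio of *TNFRSF10B* to *TNFRSF10A* was 3.53 to 3.68 in DMSO and 7.07 to 7.36 in NXP800 at 6 h. At 24 h it was 2.96 to 3.32 in DMSO and 4.26 to 5.17 in NXP800. The groups did not overlap in any of these 4 comparisons. With 3 libraries against 3, a two-sided exact permutation test that leaves out the replicate numbers cannot go below 0.1. Each of the 4 comparisons reached this value (adjusted p = 0.114 over the 8 ratio tests run).

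**Figure D2:**
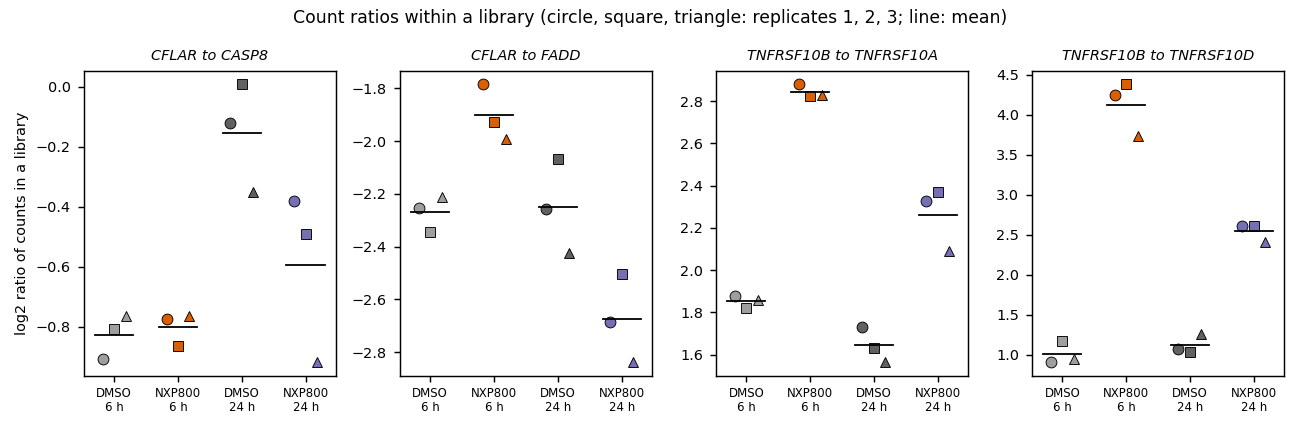
log2 of the ratio of counts of 2 genes in the same library (y axis, each panel with its own scale) in the 4 conditions (x axis), where points are libraries and lines are means of 3. The ratio of *TNFRSF10B* to *TNFRSF10D* is higher in every NXP800 library than in every DMSO library, and the 6 h gap of 3.11 exceeds the 24 h gap of 1.43.

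*FAS*, the receptor of Fas ligand, had few counts and opposite responses at the 2 times. It lies on chromosome 10 from 88964050 to 89017059. Its level at 6 h was 1.68, 1.73 and 1.85 CPM in DMSO and 2.03, 2.57 and 2.58 CPM in NXP800 (53 to 84 counts per library). The NXP800 libraries were all higher, but the log2 change of 0.45 (standard error 0.19) missed the threshold (adjusted p = 0.0551). With the replicate number within each time point as a block, it passed (log2 change 0.44, adjusted p = 0.0348). Under that block 62.3% of all genes were called at 6 h and 65.2% at 24 h. The 6 h value of *FAS* also passed without NXP800 6 h replicate 1 (0.037) or without NXP800 24 h replicate 2 (0.0317). The 24 h level was 1.37, 1.88 and 1.65 CPM in DMSO and 1.19, 0.815 and 1.12 CPM in NXP800, from 26 to 56 counts. All NXP800 libraries were lower, by 0.65 on the log2 scale (log2 change -0.65, standard error 0.21, adjusted p = 0.0143). This call was lost without DMSO 24 h replicate 2 (adjusted p = 0.0678) or without NXP800 24 h replicate 2 (0.082). The responses differed by -1.10 on the log2 scale (standard error 0.28, adjusted p = 0.00908), and this difference passed whichever library was left out (adjusted p 0.00719 to 0.0293). Exons on the opposite strand, among them those of *ACTA2*, cover 6.478% of the exon length of *FAS*.

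*TNFRSF1A*, the gene of TNFR1, was lower at 24 h. It lies on chromosome 12 from 6328771 to 6342076, and other annotated exons cover none of its exon length. The 6 h level was 118, 120 and 112 CPM in DMSO and 118, 123 and 113 CPM in NXP800. The groups overlapped, with a log2 change of 0.019 and a 95% confidence interval from -0.12 to 0.16 (adjusted p = 0.818). By 24 h the DMSO libraries had 189, 204 and 178 CPM and the NXP800 libraries 145, 134 and 144 CPM. The DMSO level was itself above that at 6 h, and the NXP800 libraries lay between the DMSO levels of the 2 times. The NXP800 level was 74.1% of DMSO (log2 change -0.43, standard error 0.064, adjusted p = 2.64e-05). The difference of the responses was -0.45 on the log2 scale (standard error 0.090, adjusted p = 0.00174).

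*FADD*, the adaptor that links receptors to caspase-8, showed the reverse order in time. It lies on chromosome 11 from 70203296 to 70207390. Its level at 6 h was 113, 125 and 120 CPM in DMSO and 87.2, 93.5 and 105 CPM in NXP800. The NXP800 libraries were all lower, at 79.6% of the DMSO level (log2 change -0.33, standard error 0.073, adjusted p = 0.00124). At 24 h the values of 130, 120 and 127 CPM in DMSO overlapped with 133, 122 and 119 CPM in NXP800. The log2 change was -0.013, with a 95% confidence interval from -0.17 to 0.14 (adjusted p = 0.89). The difference of the responses was 0.32 on the log2 scale (standard error 0.10, adjusted p = 0.0327). It did not pass without DMSO 6 h replicate 2 or 3, NXP800 6 h replicate 1 or 2, DMSO 24 h replicate 2 or NXP800 24 h replicate 1 (adjusted p 0.0598 to 0.0968). Exons of a gene on the opposite strand cover 59.19% of the exon length of *FADD*, and the strand setting of the counting is not given in the sources used here, so reads of the overlapping gene may be included.

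*CASP8*, the initiator caspase, was called at neither time. It lies on chromosome 2 from 201233463 to 201287711, and 4.74% of its exon length is shared with another annotated gene on the same strand. Its level at 6 h was 44.6, 43.0 and 44.1 CPM in DMSO and 43.2, 44.7 and 44.7 CPM in NXP800. At 24 h it was 29.7, 28.4 and 30.2 CPM in DMSO and 26.9, 30.3 and 31.4 CPM in NXP800. The treatments overlapped at each time, and every 24 h library was below every 6 h library. The log2 change was 0.011 at 6 h, with a 95% confidence interval from -0.13 to 0.15, and 0.0039 at 24 h, with an interval from -0.14 to 0.15 (adjusted p = 0.906 and 0.966).

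*CFLAR*, the gene of the caspase-8 inhibitor FLIP, lies on the same chromosome from 201116164 to 201176687. Gene counts do not separate the long and short forms of FLIP. The 6 h values were 23.8, 24.6 and 26.0 CPM in DMSO and 25.3, 24.6 and 26.4 CPM in NXP800. The groups overlapped (log2 change 0.037, 95% confidence interval from -0.17 to 0.24, adjusted p = 0.771). At 24 h it was 27.3, 28.6 and 23.7 CPM in DMSO and 20.7, 21.6 and 16.6 CPM in NXP800. All NXP800 libraries were lower, at 73.9% of the DMSO level (log2 change -0.44, standard error 0.098, adjusted p = 0.0012). The difference of the responses was -0.47 on the log2 scale (standard error 0.14, adjusted p = 0.0187), and it did not pass without DMSO 24 h replicate 2 (0.0514). Exons on the opposite strand cover 10.08% of the exon length of *CFLAR*.

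RNA counts of *CFLAR* were also set against those of *CASP8* and *FADD* within each library. The ratio of *CFLAR* to *CASP8* counts at 24 h was 0.784 to 1.00 in DMSO and 0.530 to 0.768 in NXP800. The groups did not overlap, with a log2 difference of -0.44 (exact permutation p = 0.1, adjusted p = 0.114). At 6 h the log2 difference was 0.026, and the groups overlapped (exact permutation p = 0.6, adjusted p = 0.6). The ratio of *CFLAR* to *FADD* was higher in NXP800 at 6 h, by 0.37 on the log2 scale, and lower at 24 h, with a difference of -0.43 (exact permutation p = 0.1 each, adjusted p = 0.114). Its ranges were 0.197 to 0.216 in DMSO and 0.252 to 0.290 in NXP800 at 6 h, and 0.186 to 0.239 against 0.140 to 0.176 at 24 h.

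**Figure D3:**
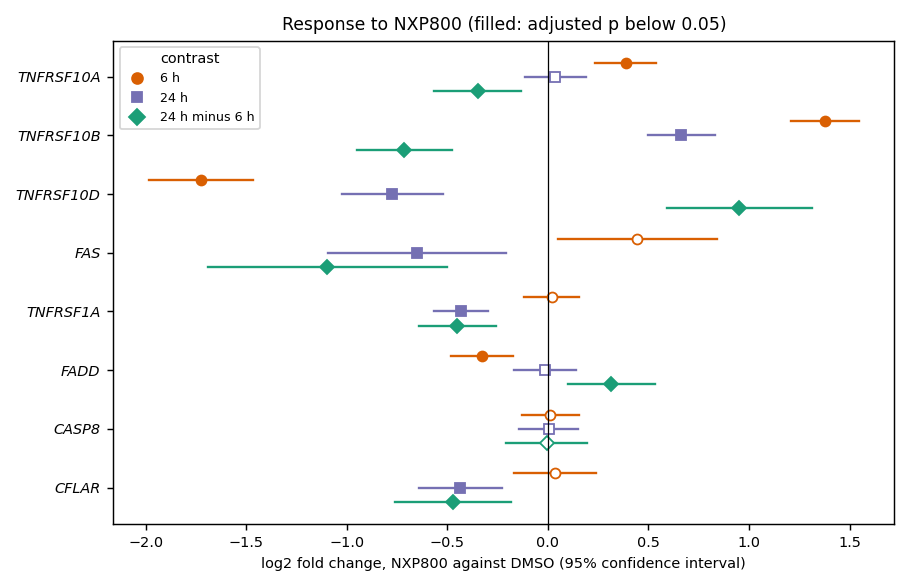
log2 change of NXP800 against DMSO (x axis) for the 8 tested genes (y axis) at 6 h, at 24 h and as the difference of the 2 responses, with 95% confidence intervals as lines and filled symbols for an adjusted p below 0.05. *TNFRSF10B* and *TNFRSF10D* lie at 1.38 and -1.72 at 6 h, and both move towards 0 at 24 h, while *FAS* crosses 0 from 0.45 to -0.65.

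The patterns over the 2 times, which cannot be told apart from library set, fell into several kinds. The 24 h minus 6 h difference was called for 7 of the 8 (25.9% of all tested genes), with 2 positive and 5 negative, where 1925 and 2207 of the 15979 tested genes were. Under scaling by library size only, 3 of the 8 were called negative, since *TNFRSF10A* (adjusted p = 0.0856) and *CFLAR* (0.0616) no longer passed, and the all-gene split was 2463 positive and 1670 negative. *TNFRSF10B* and *TNFRSF10D* changed at both times and less at 24 h. *TNFRSF10A* and *FADD* were called at 6 h and not at 24 h, and *TNFRSF1A* and *CFLAR* at 24 h and not at 6 h. The difference for *CASP8* was -0.0067, with a 95% confidence interval from -0.21 to 0.20.

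Upstream sequences are shown for 3 genes with different time courses, *FADD* (lower at 6 h), *TNFRSF1A* (lower at 24 h) and *CASP8* (called at neither time). The RefSeq promoter table of GRCh38.p14 had entries for 6 of the 10 genes, and none for *TNFRSF10A*, *TNFRSF10B*, *TNFRSF10C* and *TNFRSF10D*. The 250 bases before the start were searched on both strands for 6 motifs: the C/EBP-ATF composite (TTGCATCA), the cyclic AMP response element (TGACGTCA), AP-1 (TGACTCA), NF-κB (10 bases), the GC box (GGGCGG) and the CCAAT box (CCAAT). The bases outside annotated exons are printed 5′ to 3′ on the strand of the gene, with matches in capitals.
FADD, chr11:70203046-70203295, plus strand: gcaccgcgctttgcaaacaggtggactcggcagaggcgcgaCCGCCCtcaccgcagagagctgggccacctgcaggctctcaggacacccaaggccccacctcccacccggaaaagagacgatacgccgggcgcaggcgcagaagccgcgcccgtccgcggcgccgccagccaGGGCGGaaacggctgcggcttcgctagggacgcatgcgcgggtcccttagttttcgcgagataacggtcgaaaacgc
TNFRSF1A, chr12:6342115-6342326, minus strand: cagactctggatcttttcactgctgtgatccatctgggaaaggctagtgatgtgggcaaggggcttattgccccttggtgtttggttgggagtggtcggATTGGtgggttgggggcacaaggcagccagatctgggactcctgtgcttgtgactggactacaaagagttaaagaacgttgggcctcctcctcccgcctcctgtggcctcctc
CASP8, chr2:201260286-201260499, plus strand: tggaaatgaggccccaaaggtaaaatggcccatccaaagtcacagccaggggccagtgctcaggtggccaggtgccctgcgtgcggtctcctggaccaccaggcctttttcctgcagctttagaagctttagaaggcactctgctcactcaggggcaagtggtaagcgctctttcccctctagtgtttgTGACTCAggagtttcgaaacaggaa

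*FADD* had 2 GC box matches, which begin 209 and 77 bases before the start of the transcript, and 42.6% of 35116 windows of this length in the table held at least 1. *TNFRSF1A* had a CCAAT match at 151 bases (32.0% of windows), and *CASP8* an AP-1 match at 61 bases (4.20%). The windows of *FAS* and *CFLAR* lie in annotated exons over 250 and 225 bases and are not printed, and that of *CFLAR* is 2552 bases from the MANE Select start. They held 1 GC box match each, and *TNFSF10* had no match. None of the 6 windows held the C/EBP-ATF composite (0.772% of windows), the cyclic AMP response element (1.65%) or the NF-κB motif (1.73%). A match describes letters in this window, and no binding was measured.

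Per length, the genes differed widely in level. On the scale of CPM per kb of the MANE Select transcript, the order in DMSO at 6 h was *FADD* (69.9 ± 3.39, SD, n = 3), *TNFRSF1A* (53.6 ± 2.06), *TNFRSF10B* (31.6 ± 1.37), *TNFRSF10D* (17.8 ± 2.12), *CASP8* (16.5 ± 0.299), *TNFRSF10A* (13.0 ± 0.585), *CFLAR* (1.70 ± 0.0755) and *FAS* (0.475 ± 0.0241). *TNFRSF10D* and *CASP8* did not differ beyond their spread, while the other neighbours did. In NXP800 at 6 h *TNFRSF10B* came first with 82.2 ± 4.30 CPM per kb. *FADD* (55.7 ± 5.21) and *TNFRSF1A* (54.4 ± 2.24) followed within their spread, and *TNFRSF10D* (5.40 ± 1.08) had fallen below *TNFRSF10A* (17.0 ± 1.03) and *CASP8* (16.6 ± 0.329). At 24 h the first gene was *TNFRSF1A* in DMSO (87.6 ± 6.04) and *FADD* in NXP800 (73.0 ± 4.43), and *TNFRSF10B* came after both in each treatment (29.7 ± 0.325 and 47.0 ± 6.09). The value of *CFLAR* depends on the length used, since its MANE Select transcript has 14612 bases.

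**Figure D4:**
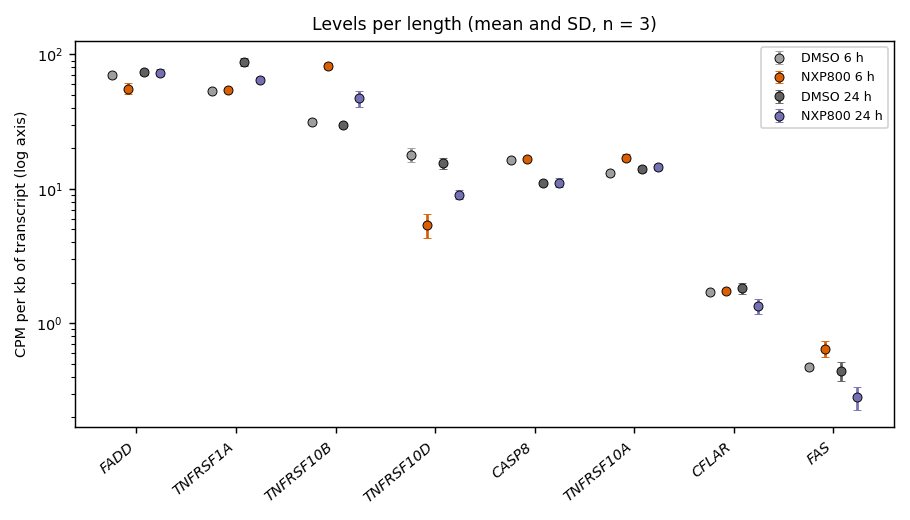
Level of the 8 tested genes in CPM per kb of MANE Select transcript (y axis, log axis) in the 4 conditions, as mean and SD of 3 replicates, ordered by the level in DMSO at 6 h (x axis). *FADD* and *TNFRSF1A* lie above 50 in all conditions, *TNFRSF10B* moves from 31.6 to 82.2 at 6 h, and *CFLAR* and *FAS* lie far below the others.

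The profile of *TNFRSF10B* over the 12 libraries was compared with the profiles of 9700 other genes whose mean log2 CPM was 3 or more, each centred on its own mean. The 5 nearest were *GRPEL2*, *RUSC2*, *RCAN1*, *AMIGO2* and *HTR7*, at a root mean square distance of 0.0834 to 0.117 log2 CPM, where that of the *TNFRSF10B* profile from its own mean was 0.591. Their log2 changes were 1.19 to 1.44 at 6 h and 0.59 to 0.82 at 24 h. This is a description over libraries that share the treatment groups.

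Of 55 other genes of the pathway, in 7 lists by role, 48 had enough counts. At 6 h 18 were higher and 12 lower, where 25.0 and 27.8% of all tested genes were. At 24 h 21 were higher and 11 lower, against 27.5 and 28.6%, and the counts of each list below stand against the same shares. Their median log2 change was 0.023 at 6 h and 0.17 at 24 h (all tested genes -0.046 and -0.0033). The genes not tested were *CASP10*, *EDAR*, *FASLG*, *LTA*, *RIPK3*, *TNF* and *TNFRSF6B*, so the ligands of FAS and TNFR1 were, as TRAIL, at or near the limit of detection.

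Among 5 tested receptors and decoys, 0 were higher and 3 lower at 6 h, and 0 and 2 at 24 h (median -0.70 and -0.47). *TNFRSF21*, which encodes the death domain receptor DR6, went from 204 ± 11.0 to 100 ± 6.27 CPM at 6 h and from 215 ± 6.95 to 75.5 ± 10.4 CPM at 24 h (SD, n = 3 each). Its log2 change was -1.03 and -1.51 (adjusted p = 5.04e-08 and 6.19e-10). *TNFRSF1B*, which encodes TNFR2, a TNF receptor without a death domain, was at -0.46 and -1.12 (adjusted p = 0.00957 and 7.64e-06), and the 6 h call was lost without DMSO 6 h replicate 1 (0.061). The last, *NGFR*, below the level set for naming and named after its values were seen, was at -0.70 at 6 h (adjusted p = 0.0141), from 24 to 44 counts per library. Of 2 tested ligands, also named after their values were seen, *TNFSF15* had 0 to 3 counts in DMSO and 16 to 21 in NXP800 at 6 h, and *EDA* 27 to 32 against 3 to 13. *TNFSF15* had at most 1 count in any 24 h library, so it passed the count filter only through the NXP800 libraries at 6 h. Its 6 h call, which is among the 18 higher list genes, is therefore not independent of the filter, and its 24 h response cannot be read. *EDA* was not called at 24 h.

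Among 10 tested adaptors, kinases and related genes, 3 were higher and 1 lower at 6 h, and 5 and 2 at 24 h (median 0.068 and 0.19). *PEA15*, whose product has a death effector domain and binds FADD and caspase-8, had log2 changes of 0.71 and 0.64 (adjusted p = 8.51e-07 and 2.07e-06). *DEDD2*, which also encodes a death effector domain, rose by 0.43 at 6 h (0.0004) and by 0.21 at 24 h (adjusted p = 0.038). The latter was lost without DMSO 24 h replicate 1 or 2 or NXP800 24 h replicate 1 (0.0501 to 0.147), with no filter on low counts (0.0604) and with the 24 h libraries alone (0.0553). *MLKL*, the pore-forming effector of necroptosis, went from 21.1 ± 1.13 to 9.55 ± 0.522 CPM at 6 h (log2 change -1.14, adjusted p = 4.92e-05). At 24 h it stood at 17.4 ± 4.95 in DMSO and 18.7 ± 4.75 CPM in NXP800 (log2 change 0.098, adjusted p = 0.648). *CYLD*, a deubiquitinase of RIPK1, rose by 0.93 at 6 h (adjusted p = 1e-07), and at 24 h its log2 change was 0.18 (adjusted p = 0.0817). The 24 h value passed with the replicate block (0.0236) and with scaling by library size only (0.00958). *TRADD* and *RIPK1*, the partners of TNFR1, rose at 24 h by 0.43 and 0.37 (adjusted p = 0.00194 and 0.000336), and *TRAF2* fell by 0.50 (adjusted p = 7.81e-06). *CASP8AP2*, whose product binds caspase-8, had a log2 change of -0.40 at 24 h (adjusted p = 0.00956), and 0.0612 with scaling by library size only.

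Among 12 brakes and ubiquitin ligases of the receptor complexes, 7 were higher and 1 lower at 6 h, and 7 and 2 at 24 h (median 0.42 and 0.23). *BIRC3*, which encodes the ubiquitin ligase cIAP2, rose from 10.7 ± 0.0302 to 33.7 ± 2.02 CPM at 6 h (log2 change 1.65, adjusted p = 2e-08). At 24 h it was low, with 1.41 to 1.78 CPM in DMSO and 0.574 to 1.28 CPM in NXP800, from 18 to 52 counts per library (log2 change -0.76, adjusted p = 0.00685). Its neighbour *BIRC2* (cIAP1) rose from 154 ± 13.1 to 316 ± 13.6 CPM at 6 h (log2 change 1.03, adjusted p = 6.97e-08). At 24 h its log2 change was 0.17 (adjusted p = 0.113). That value passed with the replicate block (0.0296) and with scaling by library size only (0.0243). It also passed without DMSO 24 h replicate 1 (0.0485) and without NXP800 24 h replicate 3 (0.0147). *XIAP*, an inhibitor of caspases, rose by 0.55 and 0.61 (adjusted p = 1.65e-05 and 5.9e-06). *RBCK1*, which encodes HOIL-1 of the linear ubiquitin ligase, rose by 0.45 at 6 h (0.00012) and 1.51 at 24 h (2.38e-10). *TNFAIP3* (A20), an NF-κB target, was at 0.80 at 6 h (adjusted p = 0.000381) and at 0.52 at 24 h (0.0322). The latter was lost without DMSO 24 h replicate 3 (0.133), NXP800 24 h replicate 1 (0.13) or NXP800 24 h replicate 2 (0.0867), and with the 24 h libraries alone (0.0869). *FAIM2*, an inhibitor of FAS signalling, was lower at both times. Its 6 h log2 change was -0.94 (adjusted p = 0.0169), a call lost without DMSO 6 h replicate 1 or 2 or NXP800 6 h replicate 1 or 3 (0.055 to 0.0776). The 24 h libraries went from 4.22 ± 1.83 to 0.684 ± 0.217 CPM (log2 change -2.62, adjusted p = 2.08e-05).

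Downstream of caspase-8, 0 of 7 genes were higher and 4 lower at 6 h, and 2 higher and 3 lower at 24 h (median -0.43 and -0.17). *BID*, the link to the mitochondria, fell by 0.43 at 6 h and by 0.69 at 24 h on the log2 scale (adjusted p = 0.001 and 1.2e-05). *PARP1*, a DNA repair enzyme cut by executioner caspases, went from 412 ± 5.69 to 246 ± 16.9 CPM at 6 h and from 376 ± 26.9 to 176 ± 14.7 CPM at 24 h. Its log2 change was -0.74 and -1.10 (adjusted p = 5.61e-07 and 5.46e-09). *CASP6* was at -1.09 and -1.06 (adjusted p = 3.2e-05 and 6.18e-05). *DFFB*, the nuclease that fragments DNA in apoptosis, went from 5.56 ± 0.301 to 1.82 ± 0.345 CPM at 6 h (log2 change -1.61, adjusted p = 5.44e-07), and at 24 h its log2 change was -0.17 (adjusted p = 0.322). *DFFA*, its inhibitor and chaperone, rose at 24 h by 0.31 (adjusted p = 0.000608), and its 6 h log2 change of -0.15 was not called (0.0505).

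Of 5 apoptosome and mitochondrial genes, 1 was higher and 2 lower at 6 h, and 2 and 2 at 24 h (median 0.076 and -0.0042). *APAF1*, the scaffold of the apoptosome, was at -0.52 and -0.88 (adjusted p = 0.000203 and 1.11e-06). *CASP9*, the caspase it activates, was at 0.076 at 6 h (adjusted p = 0.728) and higher by 0.63 at 24 h (adjusted p = 0.00246). *DIABLO* and *HTRA2* encode mitochondrial proteins that bind XIAP once released. *DIABLO* rose by 0.20 at 6 h (adjusted p = 0.0364) and by 0.30 at 24 h (0.00349), and *HTRA2* was lower, with log2 changes of -0.32 and -0.33 (0.0182 and 0.0143). The 6 h call of *DIABLO* was lost without DMSO 6 h replicate 1 or 3 or NXP800 6 h replicate 1 or 2 (adjusted p 0.0882 to 0.166). The 6 h call of *HTRA2* was lost without DMSO 6 h replicate 1 or 2 or NXP800 6 h replicate 3 (0.053 to 0.0584), and the 24 h call without DMSO 24 h replicate 3 or NXP800 24 h replicate 1 or 2 (0.0645 to 0.0969) and by library size only (0.062). Of 7 transcription factors known to act on death receptor genes, 6 were higher and 0 lower at 6 h, and 5 and 0 at 24 h (median 0.85 and 0.51). *DDIT3*, which encodes CHOP, went from 9.40 ± 1.05 to 75.5 ± 10.4 CPM at 24 h, with log2 changes of 3.05 (6 h) and 3.01 (24 h) (adjusted p = 2.38e-11 and 2.39e-11). *ATF3* rose by 3.71 and 2.41 and *JUN* by 1.19 and 0.88 (adjusted p = 1.17e-08, 1.17e-06, 1.47e-05 and 0.000256).

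**Figure D5:**
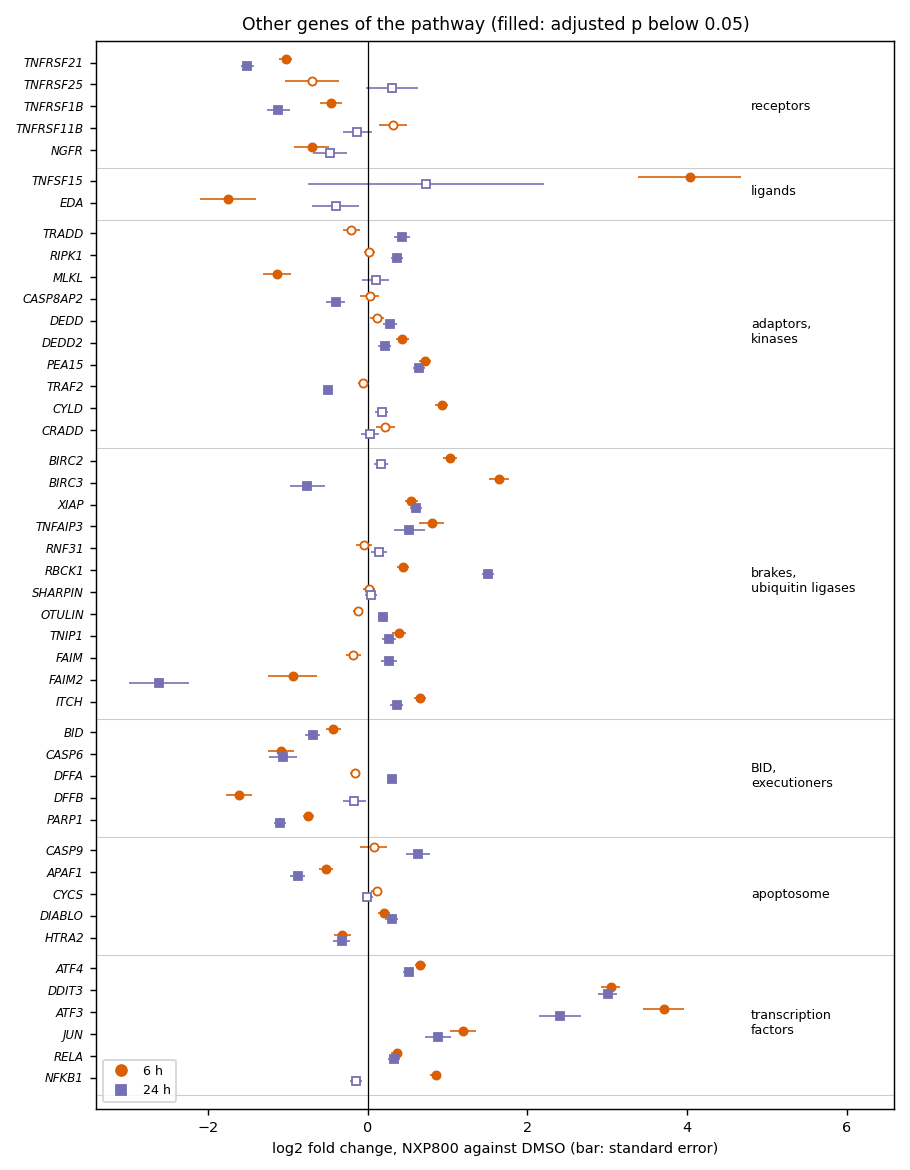
log2 change of NXP800 against DMSO (x axis, with its standard error as a line) for 45 of the 48 tested genes of the 7 lists (y axis, grouped by role), with circles for 6 h, squares for 24 h and filled symbols for an adjusted p below 0.05. *BIRC3* lies at 1.65 at 6 h and -0.76 at 24 h, *PARP1* and *TNFRSF21* lie below 0 at both times, and *DDIT3* and *ATF3* lie above 2 at both.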

How the data were processed

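RNA of MNNG/HOS cells was measured by strand-specific mRNA sequencing in 12 libraries. Per the submitters' processing notes, the authors used fastp 0.20.1, STAR 2.7.5a and HTSeq 0.12.4 with hg38 (GRCh38.p14), and deposited raw counts per RefSeq gene symbol, with no normalization. The strand setting and counting mode are not given in the sources used here. Rows without a gene name entered neither library sizes nor tests: 2.73 to 8.14% of read pairs were on no gene and 2.10 to 2.43% ambiguous.

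Groups followed the labels. In R 4.3.3 with edgeR 4.0.16, filterByExpr kept 15979 genes, libraries were scaled by TMM, and the quasi-likelihood test was run in 1 model of the 4 conditions (common dispersion 0.0072314), with Benjamini-Hochberg adjustment. Contrasts were NXP800 against DMSO at 6 h, at 24 h, and their difference. The replicate numbers, known only from the labels, pair the libraries: after removal of group means, same-numbered NXP800 and DMSO libraries correlated across genes with r from 0.159 to 0.329, against at most 0.0580 for other numbers (genes are not independent replicates). Replicates differed beyond sampling noise (7.36 to 26.3 chi-square units per degree of freedom), so none was counted as a duplicate, and this spread, not counting error, limits precision except for low genes.

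Alternatives were DESeq2 1.42.0 (size factors, Wald test), library size only, 2 other filters, libraries of 1 time point, an adjusted p below 0.01 and each library left out. A further alternative was the replicate block, by replicate number within each time point. Exon overlaps are from GENCODE v44, and coordinates from RefSeq. On simulated data, 197 of 200 genes changed 2-fold at 6 h were recovered with 8 other calls among 15613 genes, and 186 with 10 for the difference. Only these 200 genes changed, where 52.8% of all tested genes were called at 6 h in the data. The simulation therefore does not bear on changes below 2-fold or on scaling when so many genes change. The genes and lists were chosen with earlier results of these data known. Named were the 10 genes, up to 3 largest rises and falls per list whose mean log2 CPM was 1 or more (28 genes, beside 1 not reported here), and the 5 profiles nearest to *TNFRSF10B*. log2 CPM used a prior count of 2. Ratios were tested by exact permutation over the libraries of a time point, without use of the replicate pairing.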

Additional observations from a re-analysis of the deposited data

Results flagged for a closer look

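The response to NXP800 differed between 24 h and 6 h (interaction term, edgeR's quasi-likelihood test, Benjamini-Hochberg adjusted p below 0.05) for 7 of the 8 tested death receptor pathway genes, and for 25.9% of all tested genes. The 24 h minus 6 h difference on the log2 scale was -0.35 for *TNFRSF10A*, -0.71 for *TNFRSF10B*, 0.95 for *TNFRSF10D*, -1.10 for *FAS*, -0.45 for *TNFRSF1A*, 0.32 for *FADD* and -0.47 for *CFLAR*. The *FADD* difference did not pass in 6 of the 12 fits without 1 library, and under scaling by library size only those of *TNFRSF10A* and *CFLAR* did not. For *FAS* all NXP800 libraries were higher at 6 h and all lower at 24 h, at 26 to 84 counts per library. The 6 h value missed the threshold (adjusted p = 0.0551), and the 24 h call was lost without DMSO 24 h replicate 2 (0.0678) or NXP800 24 h replicate 2 (0.082).

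In the same test, the difference was positive for 10 and negative for 10 of the 48 tested list genes. These counts stand against 1925 positive and 2207 negative of all 15979 tested genes. Of the 28 named genes of the lists, 15 differed. The 28 were named for calls at 6 h or 24 h, so this count is not independent of that choice. The difference was negative for *TNFRSF21* (-0.48), *TNFRSF1B* (-0.66), *TRAF2* (-0.44), *CYLD* (-0.75), *BIRC2* (-0.86), *BIRC3* (-2.40), *FAIM2* (-1.68), *PARP1* (-0.36) and *ATF3* (-1.30). It was positive for *TRADD* (0.64), *RIPK1* (0.35), *MLKL* (1.24), *RBCK1* (1.06), *DFFA* (0.46) and *DFFB* (1.44). *BIRC3* was called in opposite directions at the 2 times. The difference of *TNFRSF1B* did not pass when any of 5 libraries was left out (DMSO 6 h replicates 2 and 3, NXP800 6 h replicate 1, DMSO 24 h replicate 2 and NXP800 24 h replicate 3, adjusted p 0.0513 to 0.057) or with no filter on low counts (0.0524). That of *PARP1* did not pass without NXP800 6 h replicate 2 or 3 or DMSO 24 h replicate 1 (0.0509 to 0.054), nor that of *FAIM2* without NXP800 6 h replicate 2, DMSO 24 h replicate 2 or NXP800 24 h replicate 2 (0.0523 to 0.064). *RIPK1* was lost without DMSO 6 h replicate 1 or DMSO 24 h replicate 2 (0.051 to 0.0527), and *ATF3* without DMSO 6 h replicate 2 or DMSO 24 h replicate 3 (0.0514 to 0.0599). Time of treatment and library set cannot be told apart, in levels or in these differences of responses. What sets these differences was not tested.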

How the results depend on the processing

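Over 448 values of the 8 tested death receptor pathway genes under the alternatives, 410 kept their direction and side of the threshold, 13 lost and 7 gained a call, and 18 changed sign. For the genes of the lists 1330 of 1390 were kept. None of the 25 sign changes (0 of called values) reached a call, and the cause was not tested. For *FADD* at 24 h the log2 fold change was 0.076 by library size only and 0.0047 with no filter. The *CASP8* difference was 0.068 and 0.010 under these. With each library left out, values that changed sign ranged at 6 h from -0.012 to 0.054 for *TNFRSF1A*, -0.0038 to 0.045 for *CASP8*, -0.0073 to 0.058 for *RIPK1*, -0.023 to 0.083 for *CASP8AP2* and -0.0082 to 0.15 for *CASP9*. At 24 h they ranged from -0.0065 to 0.072 for *TNFRSF10A*, -0.063 to 0.024 for *FADD*, -0.041 to 0.066 for *CASP8* and -0.13 to 0.35 for *MLKL*, and the *CASP8* difference from -0.052 to 0.055. In the difference of responses, the positive calls among the 8 genes went from 2 to 1 at an adjusted p below 0.01 and from 1 to 2 over the libraries left out, and the negative calls from 5 to 3 at an adjusted p below 0.01 and 3 by library size only. The calls among the 48 list genes went from 10 to 5 positive and from 10 to 6 negative at an adjusted p below 0.01. Of all tested genes, 25.9% were called in the difference at an adjusted p below 0.05. Their share at 0.01 is not given here, so these losses cannot be set against that of all genes. *FAS* at 6 h also passed in edgeR with DESeq2's size factors (adjusted p = 0.0493), library size only (0.0456), at least 10 counts in every library (0.0423) and libraries of 1 time point (0.0353). It did not pass with DESeq2's Wald test or with no filter on low counts. Over the 168 tested values of the genes and lists, the replicate block gained 16 calls and lost 0. Among the 98 values of the genes and the named list genes it gained 4 (*FAS* at 6 h, 0.0348, *CYLD* and *BIRC2* at 24 h, 0.0236 and 0.0296, and *DFFA* at 6 h, 0.0111). With it 19 list genes were higher and 16 lower at 6 h, and 24 and 13 at 24 h. Over all 15979 tested genes the block called 4622 higher and 5331 lower at 6 h, in place of 4000 and 4435. At 24 h it called 5117 and 5294, in place of 4387 and 4566. For the difference of responses it called 2945 positive and 3338 negative, in place of 1925 and 2207. Depth limits *FAS*, *TNFRSF10C* and *TNFSF10*.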
